A study of Mus musculus with 4 samples.

Results

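The regions described are the strong, short peaks, on 11 mouse autosomes, of a merged peak list from a study of Malat1 pull-downs. They held 30 or more treatment tags and were 500 bp long or shorter. All lay on chromosome 1, 4, 5, 7, 8, 10, 12, 13, 16, 17 or 18. This rule found 1073 regions, 1.38% of the 77823 peaks in the list and 2.57% of the 41691 peaks on the same chromosomes. The study used ChIRP, in which biotinylated antisense oligonucleotides draw an RNA out of sonicated nuclei and the DNA that comes with it is sequenced. The cells were 4T1-TGL, a mouse breast cancer line of strain BALBC, all labelled WT and kept in DMEM/F12. There were 4 libraries, 1 for each group: Malat1 pull-downs labelled Even and Odd, a pull-down labelled Lacz, and an input labelled Even. All values come from 1 list, in which 1 treatment called "merge" was compared with 1 input. The sources used here do not say which pull-downs were merged. No value has a replicate, and no difference between probe pools could be measured. The list holds no comparison with the Lacz pull-down, so signal that does not depend on Malat1 could not be told apart.

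Malat1 is a long noncoding RNA that stays in the nucleus and gathers in nuclear speckles, the bodies that store splicing factors. It is spliced little, is very abundant in many tumour cells, and has been mapped by pull-down methods to the bodies of transcribed genes. RNA expression was not measured in these libraries, so the identity of the cells could not be checked against marker genes. The rule chose the regions by tags and length, and the fold enrichment, summit height and score come from the same contrast. These values are therefore given as descriptions with no test. Gene positions did not enter the rule, but peaks of 1 list are not replicates, and so shares carry an interval for counting error and no p-value.

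The 6 regions whose summit fell in a promoter window are shown first, because they are the regions where the gene start itself can be read. A promoter window here runs from 250 bases before to 50 bases after a RefSeq gene start, GRCm38.p6 build. Each sequence is written 5′ to 3′ along the gene, and capitals mark the 25 bases centred on the summit, or as many of them as lie in the window. The windows are chr17:47630440-47630739 on the plus strand for Usp49, chr13:64343738-64344037 for Gm31128, chr1:157108631-157108930 for Tex35, chr4:135987195-135987494 for Pithd1, chr13:47237516-47237815 for Gm52039 and chr5:44094719-44095018 for Prom1, the last 5 on the minus strand.
Usp49: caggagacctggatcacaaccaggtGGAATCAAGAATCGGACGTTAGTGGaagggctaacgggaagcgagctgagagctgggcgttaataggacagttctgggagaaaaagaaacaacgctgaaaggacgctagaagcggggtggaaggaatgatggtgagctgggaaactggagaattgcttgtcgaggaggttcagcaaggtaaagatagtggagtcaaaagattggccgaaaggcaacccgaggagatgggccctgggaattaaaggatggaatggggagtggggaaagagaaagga
Gm31128: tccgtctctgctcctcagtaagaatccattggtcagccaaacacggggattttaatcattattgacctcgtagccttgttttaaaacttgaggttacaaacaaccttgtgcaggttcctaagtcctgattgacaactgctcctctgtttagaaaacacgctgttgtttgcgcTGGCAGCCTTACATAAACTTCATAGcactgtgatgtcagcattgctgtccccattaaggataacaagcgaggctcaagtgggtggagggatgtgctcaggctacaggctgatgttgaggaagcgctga
Tex35: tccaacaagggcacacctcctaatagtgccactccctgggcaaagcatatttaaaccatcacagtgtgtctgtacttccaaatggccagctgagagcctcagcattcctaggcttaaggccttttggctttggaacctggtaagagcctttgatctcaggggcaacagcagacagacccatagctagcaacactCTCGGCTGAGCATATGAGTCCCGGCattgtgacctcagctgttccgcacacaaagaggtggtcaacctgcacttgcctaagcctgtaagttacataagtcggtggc
Pithd1: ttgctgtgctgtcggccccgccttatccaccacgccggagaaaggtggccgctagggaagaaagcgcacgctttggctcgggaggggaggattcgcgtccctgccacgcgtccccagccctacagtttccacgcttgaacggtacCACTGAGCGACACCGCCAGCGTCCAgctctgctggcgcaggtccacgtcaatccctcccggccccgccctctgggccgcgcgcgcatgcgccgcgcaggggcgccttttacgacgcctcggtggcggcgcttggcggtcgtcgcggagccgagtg
Gm52039: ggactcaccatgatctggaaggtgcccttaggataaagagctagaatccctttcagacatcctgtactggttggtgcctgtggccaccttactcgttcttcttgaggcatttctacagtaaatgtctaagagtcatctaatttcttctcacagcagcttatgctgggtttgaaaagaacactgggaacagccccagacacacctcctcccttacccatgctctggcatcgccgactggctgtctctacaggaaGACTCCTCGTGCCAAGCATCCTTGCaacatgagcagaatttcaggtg
Prom1: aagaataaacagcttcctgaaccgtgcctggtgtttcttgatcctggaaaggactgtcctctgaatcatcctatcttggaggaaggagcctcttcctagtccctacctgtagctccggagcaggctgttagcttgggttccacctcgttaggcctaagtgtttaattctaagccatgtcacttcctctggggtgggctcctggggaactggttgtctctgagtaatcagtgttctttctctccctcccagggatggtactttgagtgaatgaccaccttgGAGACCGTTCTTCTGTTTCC

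The windows differed in base composition. That of Pithd1 was a CpG-rich start, with 69.7% G or C and 39 CpG dinucleotides. The windows of Tex35, Gm52039 and Prom1 had 4 CpG each and between 49.3% and 51.3% G or C. Those of Usp49 and Gm31128 held 11 and 7 CpG. The median over all 32851 windows of the table was 52.7% G or C with 7 CpG. Searched on both strands, with N for any base, the letters CACACA were present in the Tex35 window alone of these 6, and GAGAGA and TGANTCA, the core letters of AP-1 sites, in the Prom1 window alone. Over the whole table CACACA was in 21.1% of windows. GAGAGA was in 23.9%, and TGANTCA in 7.81%. The E-box letters CACGTG, held by 7.15% of all windows, were in none of the 6, nor was the CTCF core motif, held by 0.916%.

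Usp49, which encodes a deubiquitinase and whose window overlaps the gene Gm20517, had the most tags of these 6 regions: 60 tags and a fold of 514, with the summit 213 bp before the start. The region at the lncRNA gene Gm31128 held 52 tags and a fold of 754, 66 bp before the start. Tex35, named for its expression in testis, had 46 tags and a fold of 332, with the summit 44 bp before its start. Pithd1 had 40 tags and a fold of 693, 93 bp before its start. At Gm52039, a lncRNA gene within Rnf144b, the region held 39 tags and a fold of 367, and its summit lay 15 bp past the start. Prom1, which encodes the stem cell marker prominin 1, had 36 tags and a fold of 590, with the summit 42 bp past an internal start and 7.32 kb from the end of the gene. The 6 regions thus ran from 36 to 60 tags, and none was among the 15 regions with the most tags. They were 0.583% of the 1029 regions on the 10 chromosomes that have windows (95% Wilson interval 0.268 to 1.27), and 0.518% of all peaks on those chromosomes had a summit in a window. The share of regions was near that of all peaks.

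Tag counts fell off steeply above the minimum of 30. The median region held 38 tags (quartiles 33 and 48, highest 117), and 585 regions (54.5%) held fewer than 40. Only 103 held 60 or more, and 5 held 100 or more. The regions were 185 to 500 bp long with a median of 384 bp, and together covered 411 kb. They held 45334 tags, 5.33% of the 851227 treatment tags left after duplicate removal. The median summit height was 12 tags (quartiles 11 and 15), against 3 at the other peaks of these chromosomes. The authors' fold enrichment over input had a median of 537 (quartiles 442 and 658, lowest 42.2, highest 1137), against 139 at the other peaks. Since tags chose the regions, these differences follow from the choice.

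**Figure D1:**
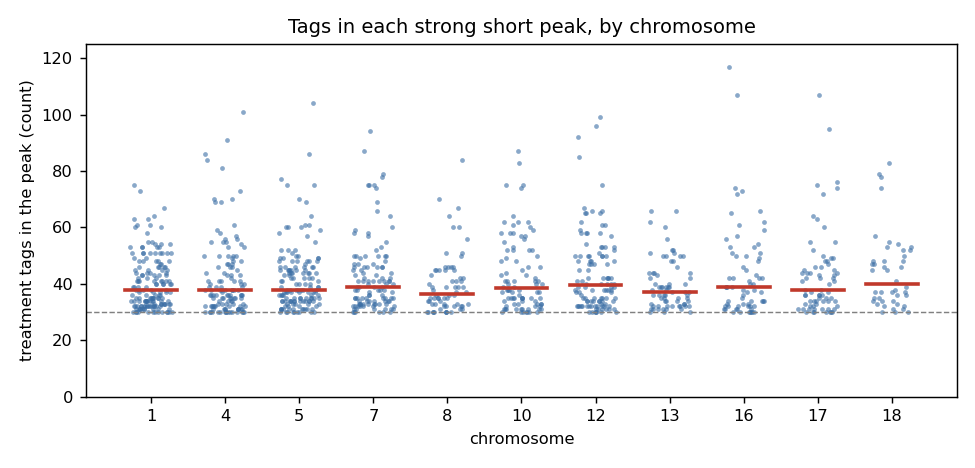
Treatment tags (count, vertical axis) in each of the 1073 strong short peaks, 1 point per peak, by chromosome; the red bar is the median of the chromosome and the dashed line the minimum of 30 tags. Medians lie between 36.5 and 40 on all 11 chromosomes, and the highest point is 117 tags on chromosome 16.

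The regions were spread over all 11 chromosomes, from 44 on chromosome 18 to 164 on chromosome 1. Per chromosome they made up 2.07% (chromosome 18) to 2.77% (chromosome 12) of the peaks, and the 95% Wilson intervals of these shares overlapped (1.54 to 2.76 and 2.31 to 3.32). Per Mb, chromosome 5 held most, 0.976, and chromosome 18 fewest, 0.502. Median tags differed little between chromosomes, from 36.5 to 40.

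These chromosomes were named as typical in copy number, which was checked with the implied input. This is the summit height divided by the fold, in units of the genome-wide mean background. It gives the background level set against each peak and is not a copy number. It is never below 1 by construction, and 7.74% of the regions were within 0.1% of 1. The median over the regions was 1.37 (interval from order statistics 1.35 to 1.4). The chromosome medians ran from 1.13 on chromosome 18 to 1.62 on chromosome 12. Peaks chosen by the same tags and length on chromosomes 9, 15 and 11 had medians of 2.05, 2.7 and 21.1. Over all peaks of these chromosomes, weak ones included, the medians were 1.73, 2.37 and 1.4. The 21.1 therefore describes the strong short peaks of chromosome 11 and not the whole chromosome. The name holds less well for chromosome 12, whose 1.62 (1.57 to 1.72) could not be told apart from the 1.63 (1.58 to 1.73) of chromosome 2, which the rule left out. Nor does the rule take every chromosome of low input: chromosomes 3, 6, 14 and 19, which it left out, had medians of 1.30, 1.24, 1.19 and 1.47.

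**Figure D2:**
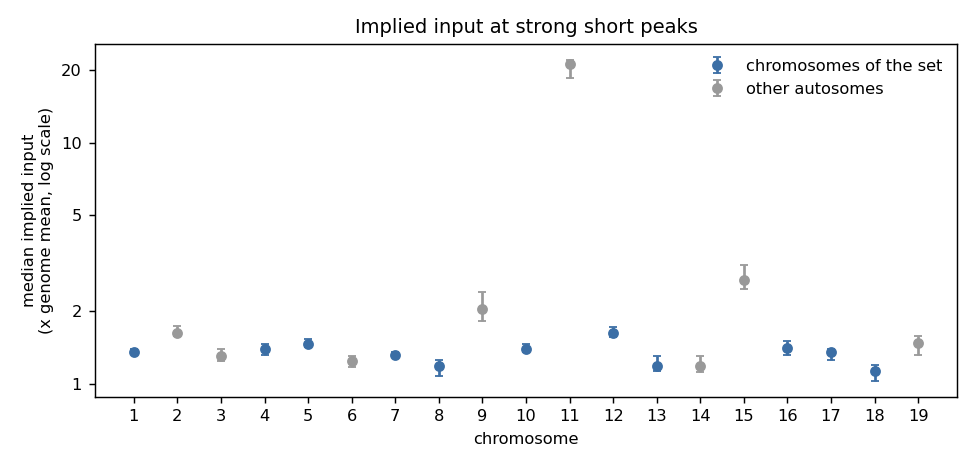
Median implied input (times the genome mean, log scale) of peaks with 30 or more tags and 500 bp or less on each autosome, with 95% intervals of the median from order statistics; blue points are the 11 chromosomes of the rule. The blue medians lie between 1.13 and 1.62, and those of chromosomes 9, 15 and 11 lie at 2.05, 2.7 and 21.1. Over all peaks of chromosome 11, which are not drawn, the median was 1.4.

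A few regions lay where the input was high. In 70 of the 1073 (6.52%) the implied input was over 2, and in 13 (1.21%) over 3, against 0.571% of the other peaks. The highest was 22.2, at chr13:3372997-3373280 (66 tags, fold 59.2), 10.8 kb from the pseudogene Gm16505. Next came a pair near the start of chromosome 18, 0.992 kb apart, with implied inputs of 16.6 and 17 and 37 and 31 tags, whose nearest gene was Vmn1r-ps151. On chromosome 1 between 88 and 89 Mb, 4 regions had implied inputs of 8.46 to 9.61: 1 in the Ugt1a genes, which encode enzymes that couple glucuronic acid to bilirubin and drugs, 2 in Mroh2a, and 1 at 6.89 kb from Trpm8, which encodes the cold-sensing channel. Another 5 lay between 30 and 31 Mb of chromosome 17, in Btbd9, at 1700097N02Rik and in Dnah8, a dynein heavy chain of sperm tails, at 3.13 to 3.48. The other lay in 1600014C10Rik on chromosome 7, at 5.36. In these 13 regions fold ran from 42.2 to 402, all below the median of 537. A low fold follows from choosing a high implied input, which is the height over the fold, since no height exceeded 22. The part of DNA copy number in the tag counts of these regions was not tested.

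Most regions lay inside genes, away from gene ends. A summit at most 1 kb away from either end of any gene was counted as near a gene end. The rest were divided by whether a protein-coding gene, some different gene or no gene covered them. Protein-coding genes held 485 summits (45.2%, 95% Wilson interval 42.2 to 48.2), and 44.2% of all peaks on these chromosomes fell in the same class. Outside annotated genes lay 441 (41.1%, 38.2 to 44.1, against 41.0% of all peaks). Within 1 kb of a gene end lay 76 (7.08%, 5.70 to 8.78, against 7.79%), and inside another gene 71 (6.62%, 5.28 to 8.26, against 7.02%). All 4 shares were near those of all peaks, whose values lay within each interval. Even the 16189 peaks of 3 tags, the fewest a peak had, gave 8.05%, 43.6%, 6.92% and 41.5% for gene ends, protein-coding genes, other genes and outside. The gene table gives no exons, so exons, introns and UTRs were not told apart.

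**Figure D3:**
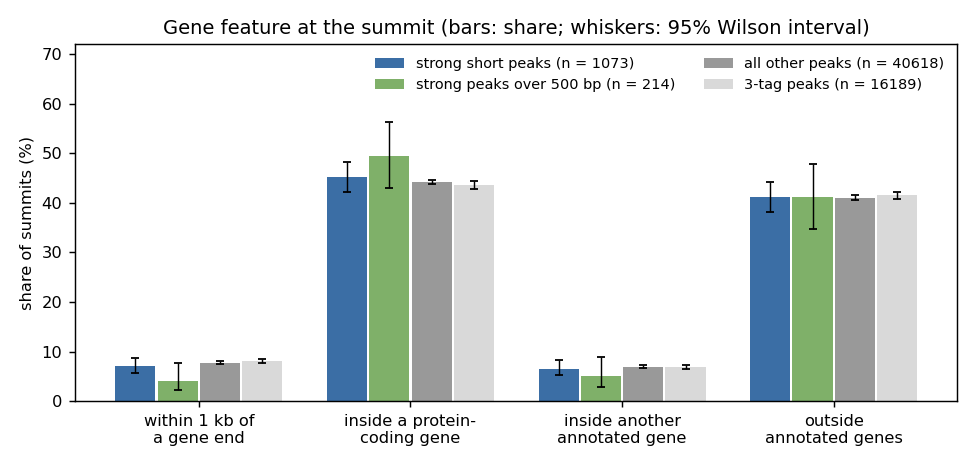
Share of summits (%) in each gene feature for the strong short peaks, strong peaks over 500 bp, all other peaks of the same chromosomes and the peaks of 3 tags; whiskers are 95% Wilson intervals, which cover counting error only. For the strong short peaks the bars stand at 7.08%, 45.2%, 6.62% and 41.1%, and their whiskers span the share of all other peaks in every class.

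The median summit lay 13.1 kb from the nearest gene end (interval 11.6 to 14.4 kb, quartiles 4.26 and 33.8 kb), against 13.2 kb for the other peaks. Far from genes, 42 regions (3.91%) lay outside any gene and more than 100 kb from the nearest end, and 4.65% of the other peaks did (Wilson interval for the regions 2.91 to 5.25). The farthest was 606 kb from any gene end. The median distance to a listed gene start, over the 10 chromosomes with windows, was 29112 bp for the regions and 31608 bp for the other peaks.

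**Figure D4:**
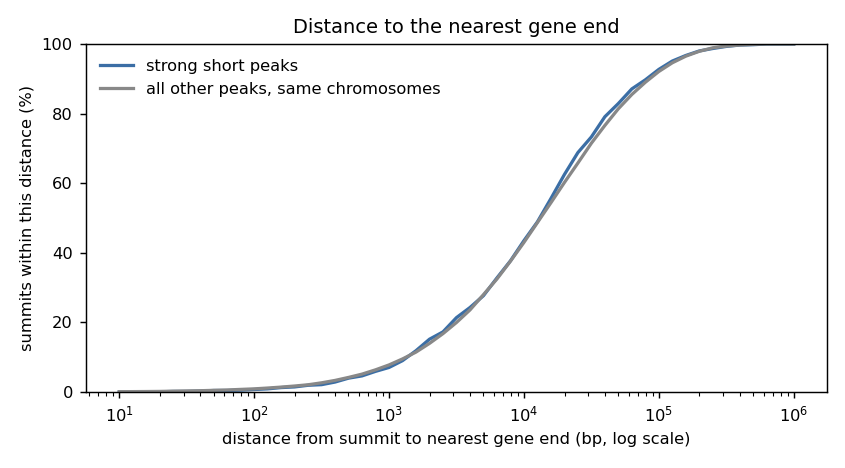
Percentage of summits that lie within a given distance (bp, log scale) of the nearest gene end, for the strong short peaks (blue) and all other peaks of the same 11 chromosomes (grey). The curves run close together, with medians of 13.1 kb and 13.2 kb.

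The class shares of single chromosomes rest on 44 to 164 regions each and have no interval here. Whether they differ between chromosomes was not tested. Protein-coding genes held from 39.7% of the regions on chromosome 4 (50 of 126) to 56.7% on chromosome 10 (51 of 90), where they held 44.3% and 44.1% of all peaks. Regions near a gene end ran from 3.45% on chromosome 5 (5 of 145) to 12.7% on chromosome 17 (9 of 71), beside 6.82% and 9.60% of all peaks there. Tags varied little by class, with medians of 41, 38, 39 and 38 for gene ends, protein-coding genes, other genes and outside. Among the 103 regions of 60 or more tags, a limit chosen after the values were seen, 14 lay near a gene end (13.6%, Wilson interval 8.27 to 21.5), against 7.79% of all peaks. The 214 strong peaks over 500 bp, whose median was 57 tags, had the lower share of 4.21% (9 peaks, 2.23 to 7.80). Whether these shares differ was not tested.

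The region with the most tags, 117, lay in St6gal1 on chromosome 16 (chr16:23272123-23272603, fold 733), which encodes a sialyltransferase of the Golgi. A region of 107 tags and fold 1078 lay 50.6 kb from Gmnc, a regulator of multiciliated cells, on the same chromosome (chr16:27042145-27042598). Ccnd3, which encodes cyclin D3, an activator of G1 kinases, also held 107 tags (chr17:47541819-47542272, fold 961). G3bp2, a stress granule protein, held 104 tags (fold 700). The lncRNA gene Gm36574 held 101 (fold 537), and Npas3, a transcription factor of the bHLH-PAS family, 99 (fold 765). These 6 carried the most tags, and 4 of them lay inside protein-coding genes.

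Of the next 9, the region by the lncRNA gene Gm36894 held 96 tags at 1.63 kb from it, and that by 1700097N02Rik 95 at 1.70 kb, with fold 402 at the high input described above. Ifitm10, of a family of interferon-induced membrane proteins, held 94 tags (fold 953). Ccdc85c held 92 (fold 672), C77080 held 91 (fold 853), and AI467606 and Slc35f1, a member of the solute carrier families, held 87 each (folds 1137 and 484). The last pair held 86 tags each and lay 16.9 kb from Gm28710 (fold 878) and 10.3 kb from the miRNA gene Gm51276 (fold 752). Over all 15, the summit height ran from 17 to 22 tags and the implied input from 1.00 to 3.13.

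By fold, which is the height over the background level set against each peak, the order was different. Regions in AI467606, in Cdh2, the N-cadherin gene (chr18:16791796-16792276, 79 tags), and 249 kb from 4930555F03Rik (70 tags) shared the highest fold, 1137, each with a height of 19 and an implied input of 1.00. The lncRNA gene Gm51641 followed (fold 1129, 63 tags). The others, all of fold 1077, were in or near Smim3 (78 tags), Rab11fip1, an effector of the recycling GTPase Rab11 (67), Ror2 (66), the pseudogene Gm9640 (48, at 7.21 kb) and the ribosomal protein gene Rpl21 (46, at 6.14 kb). With the region near Gmnc these are the 10 of highest fold. All had a height of 18 to 21, and 9 of them had an implied input of 1.06 or less. Both follow from ranking by fold, since no height in the list exceeded 22.

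Near gene ends, 36 of the 76 regions were nearest to a protein-coding gene, 33 to a lncRNA gene, 4 to a pseudogene, 2 to a miRNA gene and 1 to a snoRNA gene. All peaks near ends were not divided by gene type, so no trait of the regions can be read from these counts. Where the promoter windows give the strand, 26 of the regions lay at the 5′ end and 27 at the 3′ end, and 23 had no strand. The other peaks near ends divided as 986 and 973. The counts at the 5′ and 3′ ends were close in both sets. A RefSeq miRNA gene lay within 5 kb of 12 of the 1073 summits, a count made after the values were seen (1.12%, 95% Wilson interval 0.641 to 1.94), and of 0.532% of all peaks on the 11 chromosomes (222 of 41691). Whether the shares differ was not tested.

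Counted over protein-coding ends alone, 38 regions lay within 1 kb of one, and the 15 with the most tags ran from 87 to 46. After AI467606 came Mvk, the mevalonate kinase of sterol synthesis, Zfp579, a zinc finger gene, and Abcc10, a drug transporter of the ABC family, with 75 tags each and summits 338, 874 and 523 bp from an end. Tarm1, a receptor of myeloid cells, held 69 tags (fold 720). Clps, the colipase that pancreatic lipase needs, held 63 (fold 477), and Lsm7, a subunit of the ring that binds U6 snRNA and decaying mRNA, 62 (fold 679). Usp49 held 60. Rfxank, a subunit of the factor that turns on MHC class II genes, held 56, and Zfp811 held 55 (fold 621). Aldh5a1, which breaks down the transmitter GABA, held 51 (fold 809).

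The last 4 of the 15 were Ahr, the receptor for dioxin-like ligands (48 tags, fold 643), Plod1, a lysyl hydroxylase of collagen (48, fold 506), the MHC class II gene H2-Eb1 (46, fold 771) and Tex35 (46, fold 332). Their summits lay 501, 416, 429 and 44 bp from a gene end.

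Genes with a region were long. Of 11543 protein-coding genes on the 11 chromosomes, 594 (5.15%) had a region inside them or at most 5 kb away. These genes had a median length of 74.2 kb, and the rest one of 17 kb. Of the 1339 genes over 100 kb, 243 (18.1%) had one, and of the 10204 shorter genes 351 (3.44%). A longer gene takes in more of the genome, and no correction for length was made.

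Repeated regions in 1 gene were rare. Of all annotated genes on these chromosomes, 546 held 1 region in the body, 45 held 2, 6 held 3 and 1 held 5. Btbd9, a BTB-domain gene of 367 kb on chromosome 17, held the 5, with 44, 32, 41, 36 and 34 tags in order of position. Its implied inputs were 1.17, 1.26, 3.18, 3.35 and 3.48, so that 3 of the 5 lay where the input was high. The 6 with 3 regions were Dpp10, an accessory subunit of potassium channels (51, 30 and 32 tags), Cdkal1, which modifies tRNA (42, 50 and 39), Pcbp3, a protein that binds poly(C) RNA (62, 33 and 52), Rgs6, which ends G protein signals (30, 30 and 31), Sdk1, an adhesion protein of synapses (35, 37 and 30) and Pde2a, a phosphodiesterase of cyclic nucleotides (34, 58 and 33). Pde2a was the shortest of the 7, at 91.1 kb, and Dpp10 the longest, at 1510 kb. In these 6 genes implied inputs ran from 1.00 to 1.78.

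Gene lists were counted next, beside the 5.15% of all protein-coding genes. That share depended on gene length, at 18.1% for genes over 100 kb and 3.44% for shorter ones. List medians ran from 6.19 kb for antigen presentation to 684 kb for synaptic adhesion, so 5.15% is not a like baseline for every list. Of the synaptic adhesion genes on these chromosomes, 7 of 26 (26.9%) had a region, and their median length was 684 kb. They were Adgrl3 (59 tags), Cntnap5a and Tenm3 (41 each), Sdk1, Csmd2 (36 and 30), Csmd1 (34) and Adgrb3 (32), which encode receptors and adhesion proteins of neurons. Tumour suppressor genes had one in 2 of 16, Dcc (52 tags, fold 817), the netrin receptor, and Wwox (36 and 30 tags), an oxidoreductase gene at a fragile site. Of all protein-coding genes over 100 kb, 18.1% had a region.

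Cell cycle genes, of median length 15.6 kb, had a region in 4 of 25 (16%). Besides Ccnd3 these were Cdk6, a G1 kinase that binds cyclin D (44 tags, fold 479), Cdk1, the kinase of mitosis (32, fold 395), and E2f3, a transcription factor of S phase entry (32, fold 572). Their implied inputs ran from 1.05 to 1.75. Ccnd3, Cdk6, Cdk1 and E2f3 were 94.6, 190, 17.8 and 79.5 kb long, all above the list median. Stem cell and mammary progenitor genes had one in 2 of 13: Prom1, at the start shown above, and Esr1, the oestrogen receptor (30 tags, fold 327). Of cadherin and epithelial-mesenchymal transition genes, 2 of 21 had one. Cdh2 held 2, with 79 and 31 tags, and Tgfb2, a ligand that drives this transition, held 33 (fold 379).

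In the Wnt pathway 2 of 26 genes had a region. Apc2, a relative of the destruction complex scaffold Apc, held 74 tags (chr10:80299120-80299603, fold 920), and Ror2, a receptor for Wnt5a, held 66 and 48. Ror2 was also among the receptor tyrosine kinases, where 3 of 38 genes had one, with Alk (42 tags, fold 934) and the ephrin receptor gene Epha10 (42, fold 647). Antigen presentation genes had one in 3 of 23: Rfxank, H2-Eb1, and H2-DMa, which helps to load class II molecules (31 tags, fold 452). The regions at all 3 were near a gene end. Rfxank, H2-Eb1 and H2-DMa are short, at 8.39, 10.8 and 19.4 kb, and the share for genes of like length was not counted.

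Polycomb and Trithorax genes had a region in 2 of 12, Rbbp5 (39 tags, fold 395) and Kmt2c (37, fold 397), both of histone H3 lysine methyltransferase complexes. Of splicing and nuclear speckle genes 1 of 27 had one, Rbfox1 (39 tags, fold 475), a splicing regulator of 1530 kb. None of 45 serpin genes and none of 14 inflammasome and pyroptosis genes had one, and 25 and 8 of them had a weaker or longer peak. Of all protein-coding genes on these chromosomes, 63.3% had a peak of any kind. Of those under 100 kb, 3.44% had a region. The median lengths of the serpin genes and of the inflammasome and pyroptosis genes were 11.1 and 19.8 kb. No list was tested against other genes.

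Some regions lay close together. Within 100 kb of another lay 217 (20.2%), and 32 (2.98%) within 10 kb, and the median gap between neighbours was 729 kb. The same shares were not counted for other peaks. Whether the regions lie closer together than peaks in general was not tested. The closest pair outside the high input of chromosome 18 was at Aldh5a1 (chr13:24936722-24937155, 51 tags, fold 809, and chr13:24937796-24938101, 32 tags, fold 509). The summits lay 1042 bp apart. The first was in Aldh5a1, 734 bp from its end, and the other was in Gpld1 and the lncRNA gene 9330162012Rik, 184 bp from the end of Gpld1. Implied inputs there were 1.04 and 1.06. Atf7ip2 held 31 and 51 tags 1076 bp apart, and Lamb1, a laminin chain of basement membranes, 42 and 30 tags 1468 bp apart. Windows of 1 Mb held at most 8 regions, on chromosome 12 at 112 to 113 Mb (median implied input 1.92) and chromosome 17 at 30 to 31 Mb (3.16). Both medians were above the 1.37 of all regions. With peaks of any strength counted, these windows held 85 and 86. The whole of chromosome 12 held 4114 peaks over 116.9 Mb, and chromosome 17 held 2728 over 91.87 Mb. The 2 windows with 6 regions were on chromosome 12 at 110 to 111 Mb and chromosome 5 at 120 to 121 Mb. Their median implied inputs were 2.16 and 1.52. A window of 4 regions on chromosome 1 at 31 to 32 Mb had 1.21, below the 1.37.

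Just inside the tag minimum, the 87 regions of 30 tags had a median fold of 462 and an implied input of 1.32. Just outside it, the 89 peaks of 29 tags had 456 and 1.32. The longest regions of 30 tags were near Gm46576 and in Usp42, Ncbp1, Zfp462 and Sidt1, with folds of 296 to 428. At the length limit, the 78 regions of 480 to 500 bp had a median of 50 tags, and the 111 strong peaks over 500 bp and up to 537 bp a median of 54. The longest regions were near Gm28710 and Mmp15 (500 bp), near Gm40601 and in Zfp595 (499 bp) and in Pcbp3 (487 bp). These medians were close on either side of both limits. Near a gene end lay 4.6% of the regions of 30 tags and 6.74% of the peaks of 29 tags. At the length limit the shares were 6.41% inside and 1.8% outside. Whether these shares differ was not tested.

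The positions of all peaks followed a period of 25 bp, a pattern noticed after the values were seen. Divided by 25, the start positions of the 1073 regions left only 10 of the 25 possible remainders, 0 to 4 and 19 to 23, and 902 regions (84.1%) started at 19 to 23. The same 10 remainders held all 77823 starts of the list, and 15 held none. End positions also took 10 remainders, 1 to 5 and 20 to 24. Per the file headers, the tags were 25 bp long and 1 tag was kept per position, whereas the labels give reads of 76 nt. The summit height did not exceed 22 anywhere in the list, and 103 peaks, 4 of them among these regions, had this value. Tags per bp reached 0.257 among the regions and 0.386 in the list. Positions are thus not spread over all bases, and how many separate reads stand behind a tag count is not known from these files. What gave rise to the period was not tested.

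**Figure D5:**
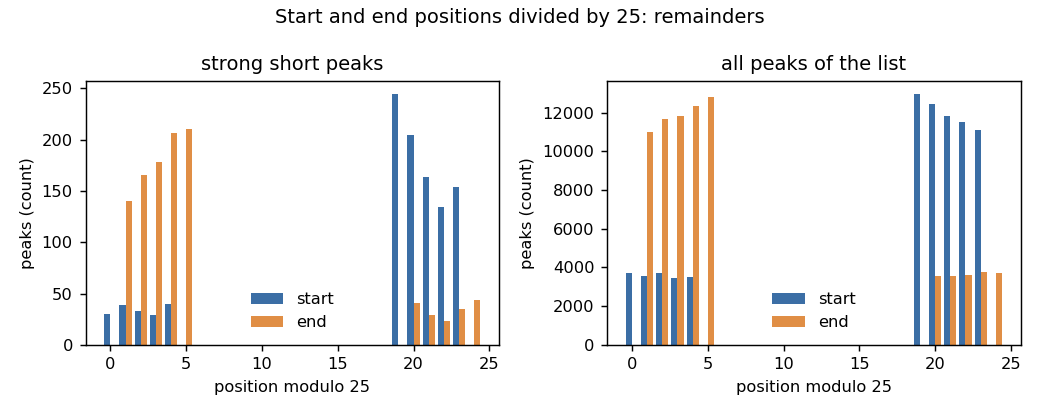
Number of peaks (vertical axis) whose start (blue) or end (orange) position leaves each remainder when divided by 25, for the 1073 strong short peaks (left) and all 77823 peaks (right). Starts fall only on 0 to 4 and 19 to 23 and ends only on 1 to 5 and 20 to 24, in both panels.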

How the data were processed

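Each of the 4 libraries was the only one of its group, and the deposited lists hold 1 merged treatment against 1 input. Per the file headers, the authors called peaks with MACS 1.4.4 at a p cutoff of 1e-05, an effective genome size of 2.7 gigabases, a fragment length of 53 bp and a tag size of 25 bp. Removal of duplicates took the treatment from 988411 to 851227 tags and the input from 52861677 to 50030325. The submitters' processing notes name the build mm10 (GRCm38). The aligner is not given in these sources. Deposited values were the whole-number count of tags per peak, the fold (a ratio to the scaled input), the score (10 times the negative log10 of p), the summit signal (pileup) and the false discovery rate in percent, 0 for every peak. All 77823 peaks matched between the lists.

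From these the implied input, classes and distances were computed with Python 3.11.15, pandas 2.3.3 and scipy 1.17.1. Genes came from RefSeq GRCm38.p6, leaving out those placed in the first 3 Mb of a chromosome. Promoter sequences are RefSeq's. Of overlapping promoter windows on opposite strands, 1668 of 1668 were reverse complements. The class code was tested on simulated data. Intervals are 95% Wilson or, for medians, from binomial order statistics, and cover counting error only. Named genes were the 15 regions with most tags, the 10 of highest fold, the 15 strongest near protein-coding ends, genes of 12 lists with a region within 5 kb, genes with 3 or more regions, and those at each limit. Regions and lists were chosen with earlier results of these data known.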

Additional observations from a re-analysis of the deposited data

How the results depend on the processing

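The median distance to a gene end kept within its interval under every setting tried for it, and the class shares did under most. All results together also include the number of regions, fold, implied input and share with a neighbour. Of their 71 alternative values over 15 settings, 49 stayed near the reported value and 22 did not. Several settings keep a part of the same regions, so these values are not independent. A minimum of 20 tags gave 2651 regions with a median fold of 434, and a minimum of 40 gave 488 with a fold of 620, an implied input of 1.4 and 8.81% near gene ends. A length limit of 400 bp gave 592 regions with an implied input of 1.35. All of chromosomes 1 to 19 gave 2216 regions, a fold of 482 and an implied input of 1.49. The 537 regions at or above the median score had a fold of 629. A gene end window of 500 bp put 3.91% near ends, and one of 5 kb put 27.7% there, 35.1% inside protein-coding genes and 33.2% outside. With protein-coding genes only, 3.54% lay near ends and 50.1% outside. An effective genome size of 2.5 gigabases gave an implied input of 1.27. Regions with another within 50 kb were 11.3%, and within 500 kb 61.3%. A lower tag minimum, a wider window or a longer distance takes in more regions by definition, and the genome size scales the implied input directly. What moved the other values was not tested. Leaving out regions of implied input over 2, or the window of chromosome 17 at 30 to 31 Mb, both chosen after seeing the data, kept every share and median within its interval. No paired analysis was possible because each group has 1 library and the list is 1 merged treatment. Depth limits all of this: the treatment held 851227 tags, and no region has a replicate.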

Other observations

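Of the 12 regions within 5 kb of a miRNA gene, some are named here, chosen after their values were seen. The nearest gene was Mir342, which lies in the actin regulator gene Evl on chromosome 12, 24 bp from the summit of a region of 61 tags and fold 387. Mir6358 on chromosome 18 followed at 375 bp (46 tags, fold 957). Mir3104 lay at 1012 bp (40 tags) and Mir6969 at 1593 bp (63 tags, the region at Clps). Mir379, of a large miRNA cluster of the imprinted Dlk1 to Dio3 domain of chromosome 12, lay 2857 bp from a summit of 32 tags and fold 216. Mir122, the main miRNA of liver, lay 2984 bp from a summit of 33 tags and fold 609, and Mir139 3173 bp from the summit of 34 tags in Pde2a. The lncRNA gene Gm40574 on chromosome 12 had a summit of 34 tags 95 bp from its end.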
